A study of Homo sapiens with 13 samples.

Results

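GAS5, SNHG1, SNHG5, SNHG6, SNHG7, SNHG8, SNHG12, SNHG15, ZFAS1 and EPB41L4A-AS1 are spliced noncoding RNAs whose introns carry small nucleolar RNAs (snoRNAs). These 10 genes, chosen by name, are 10 of the 26454 genes in the expression table, and all 10 passed the filter on low values. The study measured RNA bound to eIF4G, the scaffold of the cap-binding initiation complex, after immunoprecipitation (IP), and total RNA, in U2OS, a human osteosarcoma cell line. The IP groups were control siRNA with rapamycin (2 libraries), CDK12 siRNA with mock treatment (2) and control siRNA with mock treatment (3), and the total RNA groups were the same conditions with 2 libraries each. All cells carried an siRNA for 48 h, and rapamycin was given at 50 ng per ml for 24 h. Both fractions were extracted with Trizol and depleted of ribosomal RNA. No IP with an unspecific antibody was analysed here, and nothing in the labels ties replicates to cultures of their own, so the spread behind each p-value is that among these libraries and may be technical.

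SnoRNAs guide chemical modification of ribosomal RNA: box C/D snoRNAs (SNORD) direct methylation of the ribose and box H/ACA snoRNAs (SNORA) direct conversion of uridine to pseudouridine. They are cut out of introns after splicing, and the joined exons of a noncoding host can leave the nucleus. Several such exons are known to sit on ribosomes and to be degraded by nonsense-mediated decay, and GAS5 is named for its rise in growth-arrested cells. Many snoRNA hosts start transcription in a run of pyrimidines, as ribosomal protein genes do. Messenger RNAs with such a 5′ terminal oligopyrimidine are those whose translation depends most on the kinase mTOR, which rapamycin inhibits. CDK12 is a kinase of RNA polymerase II.

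The table placed 34 snoRNAs inside the gene bodies of the 10 hosts on their strand, 25 SNORD and 9 SNORA. GAS5 held 11, SNHG1 8, SNHG12 4, ZFAS1 3, SNHG5 and SNHG7 2 each, and SNHG6, SNHG8, SNHG15 and EPB41L4A-AS1 1 each. In hg19, GAS5 lies at chr1:173833039-173837125 on the minus strand, SNHG8 at chr4:119199917-119200978 on the plus strand and SNHG12 at chr1:28905050-28908366 on the minus strand. Annotated gene bodies span 1061 bp in SNHG8 to 10616 bp in ZFAS1.

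The sequence around the annotated start is shown because the pyrimidine start is what these genes are known to share with ribosomal protein genes. Each line gives 50 bases from RefSeq on GRCh38.p14, 5′ to 3′ on the strand of the gene, with 20 bases before the start and 30 from the start on. The motif searched was a C followed by 4 bases that are each C or T, beginning within 10 bases of the start. Capitals mark the whole unbroken run of C and T that holds the match nearest to the start, or, where there is no match, the longest run of C or T within 20 bases.
SNHG5: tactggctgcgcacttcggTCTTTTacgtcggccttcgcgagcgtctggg
SNHG12: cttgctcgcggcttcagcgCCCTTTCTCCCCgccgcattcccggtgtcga
ZFAS1: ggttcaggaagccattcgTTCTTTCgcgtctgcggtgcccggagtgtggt
SNHG7: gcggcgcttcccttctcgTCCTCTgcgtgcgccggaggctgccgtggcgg
SNHG8: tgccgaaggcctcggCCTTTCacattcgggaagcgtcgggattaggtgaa
SNHG1: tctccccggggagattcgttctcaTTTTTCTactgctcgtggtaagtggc
GAS5: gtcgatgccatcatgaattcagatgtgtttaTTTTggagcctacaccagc
EPB41L4A-AS1: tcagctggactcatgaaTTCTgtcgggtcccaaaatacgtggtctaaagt
In SNHG5, SNHG12 and ZFAS1 the motif began at the annotated first base, inside runs of 6, 12 and 7 bases that reached 1 or 2 bases further upstream. In SNHG7 and SNHG8 it began before the first base, in runs of 6 bases each, and SNHG7 also held a run of 11 further upstream, left in lower case. The other 3 sequences held no match in that window. The motif, searched on the strand of the gene, was thus within 10 bases in 5 of 8 hosts (62.5%), against 33.5% of all 35116 promoters and 83.1% of 77 ribosomal protein promoters. It began at the first base in 3 of 8 hosts, against 4.07% of all promoters and 59.7% of ribosomal protein promoters. A match is a description of the letters at an annotated start, and no start was mapped in these cells. The starts on GRCh38.p14 were not compared with those of the hg19 gene bodies in the expression table. For GAS5 and the other hosts without a match, the missing match therefore does not show that the host lacks a pyrimidine start. The sequences of SNHG6 and SNHG15 are not shown.

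Depth, recovered from the smallest steps of the deposited values, was 12.9 to 30.6 Mt (megatags) per library. CDK12 itself read 0.71 FPKM in both CDK12 siRNA libraries of total RNA, against 1.64 and 1.72 FPKM in the control libraries. In the IP it read 0.49 and 0.34 FPKM after CDK12 siRNA, against 0.50 to 0.54 FPKM in control, so the ranges lay close together there. Of 8 mesenchymal markers, 5 were above 1 FPKM in every library. CDH2 and RUNX2 lay on both sides of 1 FPKM, and COL1A2 was at most 0.03 FPKM. Of 10 markers of other cell types 9 stayed below 1 FPKM in every library, and CLDN7 reached 1.85 FPKM. All 4 rapamycin libraries carry 1 date code and the other 9 carry another, so in every rapamycin value below treatment and date cannot be told apart. The rapamycin IP libraries also held 5.50% and 6.31% of their tags in 1 gene, MYO1D, against 0.0147% to 0.0487% in control IP. Its part in the results was not tested. FPKM here covers whole gene bodies, introns included, and the sources used here do not say whether counting used strand.

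The levels spanned a wide range in control IP and a narrow one in total RNA. In control IP the mean was 175 ± 28.1 FPKM for SNHG6 and 101 ± 13.1 FPKM for SNHG8 (SD, n = 3), and the 2 stood above all other hosts. GAS5 followed at 25.2 ± 1.09, then SNHG1 at 13.7 ± 1.13, SNHG5 at 11.7 ± 2.09, ZFAS1 at 10.5 ± 1.17, SNHG12 at 9.11 ± 1.70, EPB41L4A-AS1 at 7.20 ± 0.675, SNHG7 at 5.87 ± 0.452 and SNHG15 at 4.59 ± 0.419 FPKM. From SNHG1 down to EPB41L4A-AS1 each host overlapped the next in this order, and the other neighbours did not overlap. In control total RNA the highest means were 12.8 FPKM for SNHG1, 12.3 for ZFAS1, 11.1 for GAS5, 10.0 for SNHG8 and 9.31 for SNHG6, and the lowest was 2.39 for SNHG7.

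**Figure D1:**
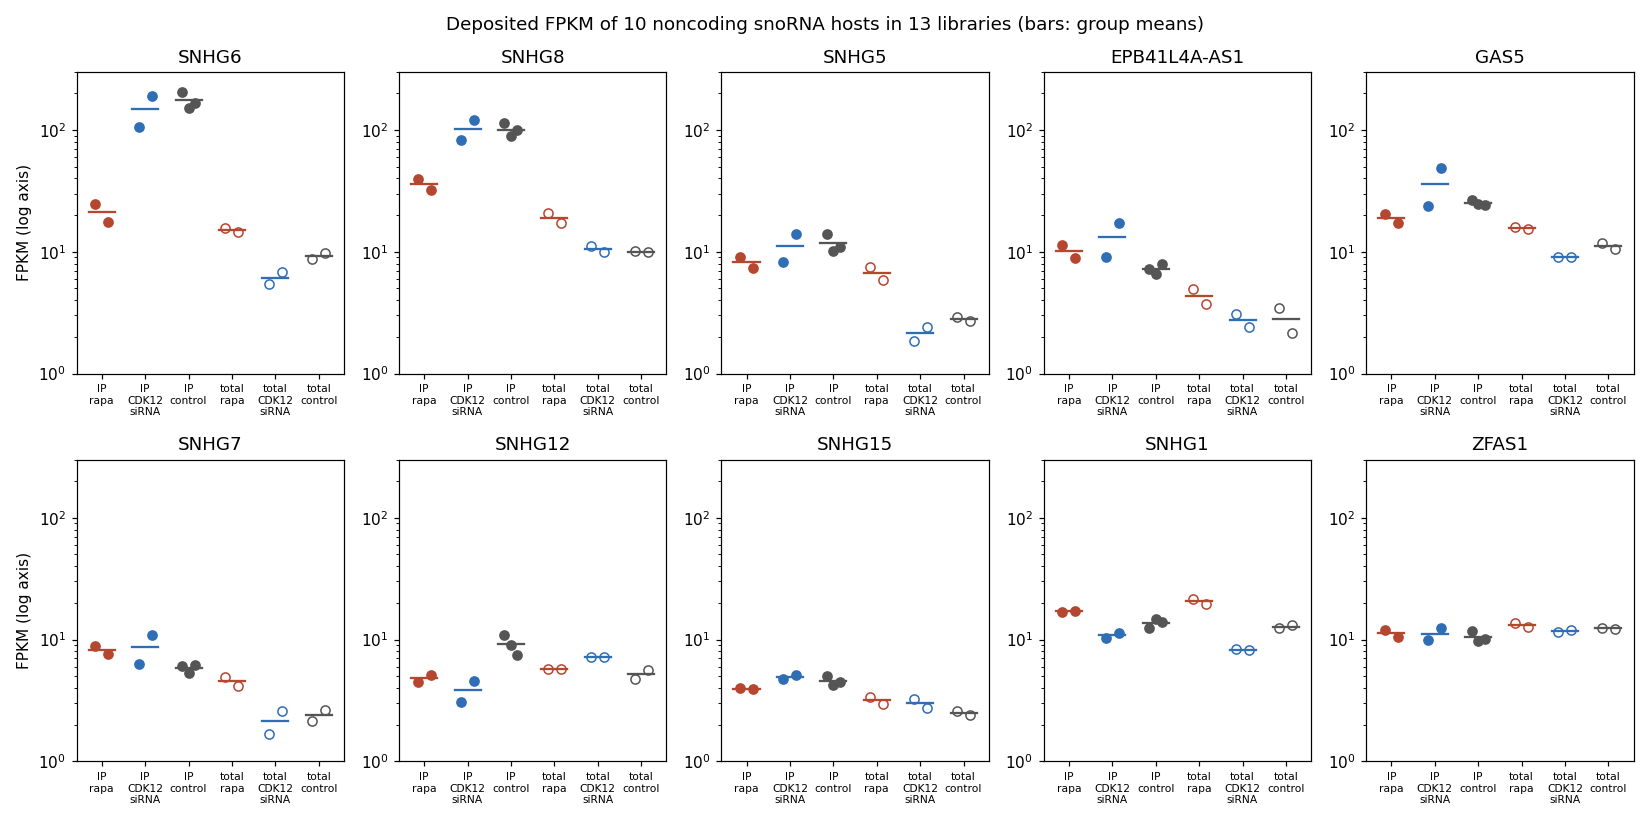
Deposited FPKM (log axis) of the 10 hosts in 13 libraries. Points are libraries, filled for IP and open for total RNA, and bars are group means. SNHG6 and SNHG8 exceed 80 FPKM in every control and CDK12 siRNA IP library and lie below 40 FPKM in both rapamycin IP libraries.

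The first comparison asked how the hosts were recovered with eIF4G. In control cells 9 of 10 hosts were higher in the IP than in total RNA, against a background of 54.0% of the 9908 genes tested (26.4% were lower), and SNHG6 and SNHG8 led. That count rests on the scaling: 7 hosts were higher and 2 lower with factors from the tested genes, 8 and 0 with no scaling, and 3 and 4 under quantile normalization. The hosts' median log2 difference was 1.25, beside 0.35 over all tested genes. Of the 2128 genes with a mean FPKM of at least 5 over the libraries, 1862 were higher in the IP and 111 lower. The median of those genes was 1.67, above that of the hosts, of which 9 passed this filter. Differences here and below are log2(FPKM + 1) after scaling, from limma, with p-values adjusted by Benjamini-Hochberg over all tested genes.

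SNHG6, the host of SNORD87, had 206, 152 and 166 FPKM in control IP, against 8.77 and 9.85 FPKM in control total RNA. The groups were far apart, with a log2 difference of 4.28 ± 0.26 (SE, adjusted p 3.16e-07). SNHG8, the host of SNORA24, had 115, 88.6 and 99.4 FPKM in control IP, against 10.1 and 10.0 FPKM in total RNA. Every IP library was above every total library, and the log2 difference was 3.40 ± 0.19 (adjusted p 2.09e-07). SNHG5, the host of SNORD50A and SNORD50B, had 14.1, 10.1 and 11.02 FPKM in control IP, against 2.90 and 2.71 FPKM in total RNA. It too did not overlap, with a log2 difference of 1.91 ± 0.23 (adjusted p 2.80e-05). GAS5 had 26.4, 24.7 and 24.4 FPKM in control IP, against 11.7 and 10.6 FPKM in total RNA, a log2 difference of 1.3 ± 0.24 (adjusted p 0.000716). EPB41L4A-AS1, SNHG7, SNHG12 and SNHG15 were higher in the IP by 1.3, 1.19, 0.88 and 0.84.

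The other 2 hosts were near the level of total RNA. SNHG1, host of 8 SNORD genes, had 12.4, 14.6 and 14.0 FPKM in control IP, against 12.4 and 13.2 FPKM in total RNA. These overlapped before scaling, and its log2 difference of 0.28 ± 0.09 (adjusted p 0.0182) was below the median of all genes. ZFAS1 had 11.8, 9.67 and 10.0 FPKM in control IP, against 12.4 and 12.2 FPKM in total RNA, with a log2 difference of -0.03 ± 0.13 (adjusted p 0.842). It was called lower under quantile normalization (-1.67, adjusted p 1.09e-07) and with factors from the tested genes (-0.61, adjusted p 0.000713). Quantile normalization, under which the median of all genes was 0.03, gave -1.46 for SNHG1, -0.60 for GAS5 and -0.43 for SNHG12, all called lower, and SNHG7 (0.34), EPB41L4A-AS1 (0.33) and SNHG15 (0.05) were no longer called. Factors from the tested genes alone gave -0.30 for SNHG1, called lower, and 0.34 for SNHG12, not called. SNHG6, SNHG8 and SNHG5 were higher in the IP under all 23 alternatives. SNHG1 missed the threshold without control IP replicate 2 (0.25) and without control total replicate 1 (0.21).

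After CDK12 siRNA, 7 hosts were higher in the IP than in total RNA (background 55.7%) and 1 was lower (background 26.8%), against 6 and 3 with factors from the tested genes, 8 and 1 with no scaling, and 5 and 4 under quantile normalization. SNHG6 and SNHG8 led again, at 4.16 ± 0.28 and 2.95 ± 0.21, and SNHG1 and ZFAS1 did not pass (adjusted p 0.140 and 0.138). SNHG1 and ZFAS1 were called lower with factors from the tested genes and under quantile normalization, and SNHG1 was called higher with no scaling. SNHG12, lower in the fit given here, had 3.08 and 4.60 FPKM in the IP, against 7.25 and 7.21 FPKM in total RNA. The libraries did not overlap, and the log2 difference was -0.95 ± 0.19 (adjusted p 0.00107). With rapamycin, 4 hosts were higher in the IP (background 38.9%) and none lower (background 13.1%): EPB41L4A-AS1 at 1.16, SNHG8 at 1.02, SNHG7 at 0.84 and SNHG15 at 0.36. The counts were 3 and 1 with factors from the tested genes, 4 and 0 with no scaling, and 1 and 3 under quantile normalization, where SNHG8 (0.24), SNHG7 (0.39) and SNHG15 (0.03) lost their calls and SNHG12 was called lower (-0.58). SNHG15 (0.16) also lost its call with factors from the tested genes. GAS5, SNHG1, SNHG5 and ZFAS1 did not pass (adjusted p 0.242, 0.342, 0.214 and 0.688). SNHG1 was called lower with factors from the tested genes, and both SNHG1 and ZFAS1 were called lower under quantile normalization. For SNHG6 the difference was 0.57 ± 0.28 (adjusted p 0.117), and for SNHG12 it was -0.09 ± 0.19 (adjusted p 0.700). The calls for EPB41L4A-AS1, SNHG7 and SNHG15 were lost without rapamycin IP replicate 1 (0.99, 0.73 and 0.34) or without rapamycin total replicate 2 (1.01, 0.76 and 0.29). Of the 2128 genes with a mean FPKM of at least 5, 1835 were higher in the IP and 129 lower after CDK12 siRNA. With rapamycin 1570 of those genes were higher and 47 lower. On deposited FPKM, the IP to total ratio of SNHG6 was 1.40 with rapamycin, 24.1 after CDK12 siRNA and 18.8 in control. That of SNHG8 was 1.89, 9.62 and 10.0.

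**Figure D2:**
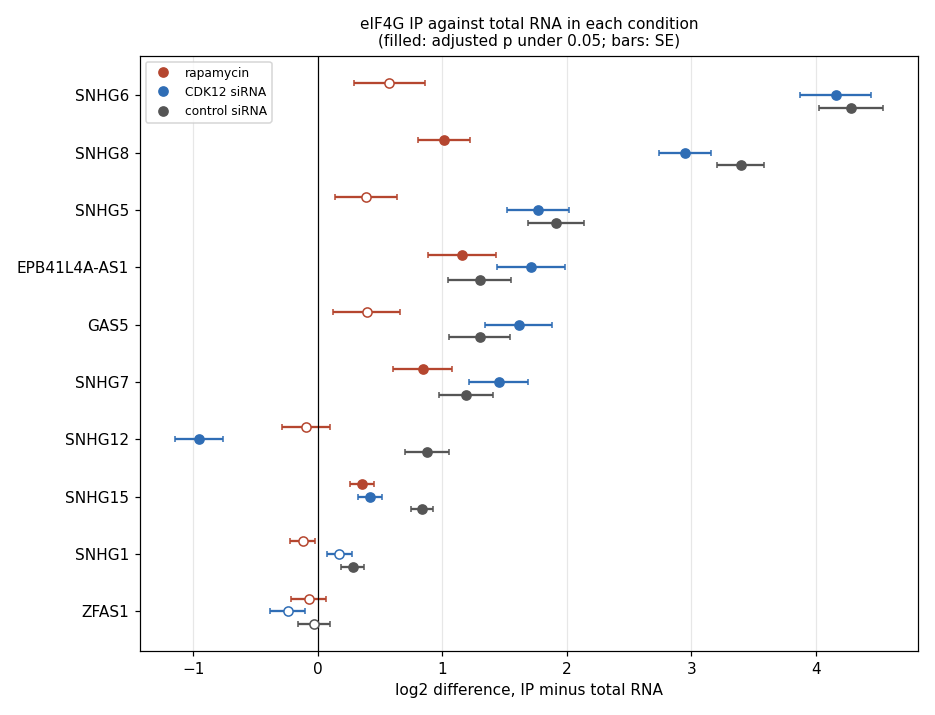
Log2 difference between IP and total RNA for each host in the 3 conditions, with SE bars. Filled points passed an adjusted p of 0.05. The rapamycin points of SNHG6 (0.57) and SNHG8 (1.02) lie far left of their control points (4.28 and 3.40).

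The rapamycin comparison asked which hosts changed when mTOR was inhibited. In the IP, 6 of 10 hosts fell and none rose, against 40.3% and 32.2% of tested genes. The hosts' median log2 difference was -0.56, beside -0.05 over all genes. Of the 2128 genes with a mean FPKM of at least 5, a filter that 9 hosts passed, 1362 fell and 354 rose. The median of those genes was -0.75, below that of the hosts. The fallen and risen hosts numbered 5 and 0 with factors from the tested genes, 3 and 1 with no scaling, and 3 and 4 under quantile normalization. The fallen hosts were SNHG6, SNHG8, SNHG12, SNHG5, GAS5 and SNHG15.

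SNHG6 had 24.6 and 17.5 FPKM in rapamycin IP, against 206, 152 and 166 FPKM in control IP. Both rapamycin libraries were far below all controls, and the log2 difference was -3.31 ± 0.26 (adjusted p 2.96e-06). SNHG8 had 39.7 and 32.1 FPKM in rapamycin IP, against 115, 88.6 and 99.4 FPKM in control IP. It was also lower in both libraries, by -1.77 ± 0.19 (adjusted p 2.27e-05). SNHG12, which carries 3 SNORA genes and SNORD99, had 4.50 and 5.09 FPKM in rapamycin IP, against 10.8, 9.02 and 7.45 FPKM in control IP. The groups did not overlap, and the difference was -1.06 ± 0.17 (adjusted p 0.000397).

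SNHG5 had 8.99 and 7.41 FPKM in rapamycin IP, against 14.1, 10.1 and 11.02 FPKM in control IP, a difference of -0.75 ± 0.23 (adjusted p 0.0140). GAS5 had 20.6 and 17.3 FPKM in rapamycin IP, against 26.4, 24.7 and 24.4 FPKM in control IP, a difference of -0.70 ± 0.24 (adjusted p 0.0270). SNHG15 fell by 0.42 ± 0.09. Neither SNHG5 nor GAS5 overlapped, but without rapamycin IP replicate 2 both missed the threshold (-0.60 and -0.56), and GAS5 also missed it without control IP replicate 1 (-0.67). Under quantile normalization GAS5 turned to 0.19, and SNHG5 (-0.13) and SNHG15 (-0.08) missed the threshold. GAS5 also missed it with factors from the tested genes (-0.50), and SNHG5, GAS5 and SNHG15 missed the threshold with no scaling (-0.46, -0.40 and -0.17). SNHG7 (0.15 ± 0.22, adjusted p 0.551), ZFAS1 and EPB41L4A-AS1 (adjusted p 0.205 and 0.600) did not pass the test. Under quantile normalization SNHG7 (0.56), ZFAS1, EPB41L4A-AS1 and SNHG1 were all called higher, and with no scaling SNHG1 was. SNHG1 had 16.9 and 17.1 FPKM in rapamycin IP, above the 12.4 to 14.6 FPKM of control IP before scaling, and an adjusted p of 1 after it.

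In total RNA, 3 hosts rose with rapamycin and none fell, against 20.4% and 16.2% of tested genes. Of the 2128 genes with a mean FPKM of at least 5, 659 rose and 136 fell. Hosts risen and fallen numbered 1 and 0 with factors from the tested genes, 5 and 0 with no scaling, and 1 and 1 under quantile normalization. SNHG1 and SNHG8 lost their calls with factors from the tested genes (0.27 and 0.48) and under quantile normalization (0.05 and 0.31). SNHG5 had 7.51 and 5.81 FPKM in rapamycin total RNA, against 2.90 and 2.71 FPKM in control total RNA, a log2 difference of 0.78 ± 0.25 (adjusted p 0.0352). SNHG8 had 20.7 and 17.3 FPKM, against 10.1 and 10.0 FPKM in control total RNA, a difference of 0.61 ± 0.21 (adjusted p 0.0458). SNHG1 had 21.5 and 19.6 FPKM, against 12.4 and 13.2 FPKM in control total RNA, a difference of 0.40 ± 0.10 (adjusted p 0.0136). Rapamycin libraries were the higher ones in all 3, and on deposited FPKM in all 10 hosts, where 65.5% of tested genes did the same. SNHG6 had 15.6 and 14.5 FPKM with rapamycin, against 8.77 and 9.85 FPKM in control, but its scaled difference of 0.40 ± 0.28 did not pass (adjusted p 0.294). Adjusted p was 0.129 for SNHG7 and 0.420 to 0.736 for GAS5, SNHG12, SNHG15, ZFAS1 and EPB41L4A-AS1. Leaving out 1 library left 0 to 4 hosts called, and 0 were called without rapamycin total replicate 1 or without control total replicate 1. Fewer genes in all were called without rapamycin total replicate 1 than the 3632 of 9908 called with all libraries. The filter on low values was applied again whenever a library was left out.

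Changes in the 2 fractions were then compared as an interaction, the IP change minus that of total RNA. It was negative in 6 hosts and positive in none, against 37.9% and 24.5% of tested genes. Of the 2128 genes with a mean FPKM of at least 5, it was negative in 1494 and positive in 152. The median of those genes was -1.02, beside -0.70 for the hosts. Hosts called negative and positive numbered 4 and 0 with factors from the tested genes, 5 and 0 with no scaling, and 3 and 2 under quantile normalization. SNHG6 led with -3.71 ± 0.38 (adjusted p 4.99e-05), then SNHG8 with -2.38 ± 0.28 (adjusted p 9.72e-05) and SNHG5 with -1.52 ± 0.34 (adjusted p 0.00333). SNHG12 followed at -0.97 ± 0.26, SNHG15 at -0.48 ± 0.13 and SNHG1 at -0.40 ± 0.14. GAS5 was at -0.91 ± 0.36, with an adjusted p of 0.0528, and SNHG7, ZFAS1 and EPB41L4A-AS1 did not pass (adjusted p 0.375, 0.864 and 0.759). SNHG12 (-0.15) and SNHG15 (-0.02) lost their calls under quantile normalization, and SNHG15 (-0.20) and SNHG1 (-0.08) with factors from the tested genes. SNHG1 turned to 0.62 under quantile normalization, called positive, and missed the threshold without any 1 of 5 libraries, both rapamycin IP replicates (-0.41 and -0.39), control IP replicate 2 (-0.38), rapamycin total replicate 1 and control total replicate 1 (-0.34 each). SNHG6, SNHG8 and SNHG5 kept their call under all 23 alternatives.

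**Figure D3:**
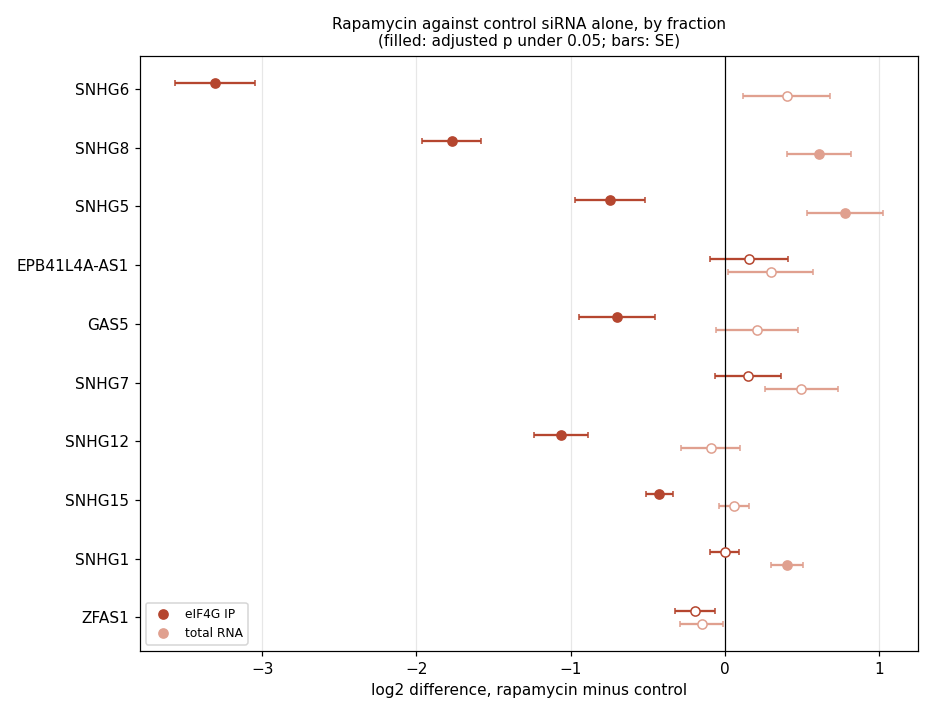
Log2 difference between rapamycin and control for each host, in IP and total RNA, with SE bars. Filled points passed an adjusted p of 0.05. In SNHG8 and SNHG5 the filled points of the 2 fractions lie on opposite sides of 0 (-1.77 and 0.61, -0.75 and 0.78).

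After CDK12 siRNA, 2 of 10 hosts fell and none rose in the IP, against 18.4% and 13.7% of tested genes, and SNHG12 had the larger fall. Fallen and risen hosts numbered 2 and 0 with factors from the tested genes, 2 and 1 with no scaling, and 1 and 0 under quantile normalization, where SNHG1 lost its call (-0.32, adjusted p 0.0513). SNHG12 had 3.08 and 4.60 FPKM in CDK12 siRNA IP, against 10.8, 9.02 and 7.45 FPKM in control IP. Both libraries were below every control, with a log2 difference of -1.23 ± 0.17 (adjusted p 0.00106). SNHG1 had 10.3 and 11.4 FPKM in CDK12 siRNA IP, against 12.4, 14.6 and 14.0 FPKM in control IP, a difference of -0.48 ± 0.09 (adjusted p 0.00466).

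The 2 CDK12 siRNA IP libraries differed from each other. GAS5 had 23.6 and 48.7 FPKM there, on either side of its control values of 26.4, 24.7 and 24.4 FPKM. Its difference was 0.24 ± 0.24 (adjusted p 0.484), and it was 0.77 without replicate 2 and -0.28 without replicate 3. SNHG6 had 106 and 189 FPKM, against 206, 152 and 166 FPKM in control IP, a difference of -0.47 ± 0.26 (adjusted p 0.198) that became -0.90 and passed the test without replicate 3. EPB41L4A-AS1 had 9.08 and 17.3 FPKM, against 7.16, 6.54 and 7.89 FPKM in control IP, and its 0.57 ± 0.25 (adjusted p 0.114) became 1.02 and passed without replicate 2. Without replicate 2, 5 hosts were called in place of 2. SNHG5, SNHG7, SNHG8, SNHG15 and ZFAS1 did not pass (adjusted p 0.348 to 0.645).

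In total RNA, 2 hosts were higher and 1 was lower after CDK12 siRNA, against 23.3% and 19.5% of tested genes, and the other 7 did not pass (adjusted p 0.348 to 0.959). With no scaling 0 were higher and 1 lower, under quantile normalization 3 and 1, and with factors from the tested genes 2 and 1. SNHG12 had 7.25 and 7.21 FPKM after CDK12 siRNA, against 4.76 and 5.62 FPKM in control total RNA, a log2 difference of 0.60 ± 0.19 (adjusted p 0.0294). SNHG15 had 3.24 and 2.75 FPKM, against 2.60 and 2.39 FPKM in control, a difference of 0.35 ± 0.10 (adjusted p 0.0153). SNHG1 had 8.34 and 8.20 FPKM, against 12.4 and 13.2 FPKM in control, a difference of -0.37 ± 0.10 (adjusted p 0.0159). None of the 3 groups overlapped. Leaving out 1 library gave 0 to 3 calls, with 0 without CDK12 siRNA total replicate 1. SNHG12 was thus lower in the IP and higher in total RNA, and its interaction was -1.83 ± 0.26 (adjusted p 0.000846), called under all 23 alternatives. SNHG15 was also called, at -0.42 ± 0.13 (adjusted p 0.0317). It missed the threshold without CDK12 siRNA IP replicate 2 (-0.36), CDK12 siRNA total replicate 1 (-0.33) or either control total replicate (-0.44 and -0.39). It also lost its call with no scaling (-0.10), with the compared groups alone and with library weights. Interactions were negative in 22.4% of tested genes and positive in 16.7%. SNHG8 was at -0.45 ± 0.28 (adjusted p 0.233), and passed without CDK12 siRNA IP replicate 3 (-0.73). The other 7 hosts did not pass (adjusted p 0.410 to 0.825). The CDK12 siRNA and rapamycin comparisons share their control libraries.

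**Figure D4:**
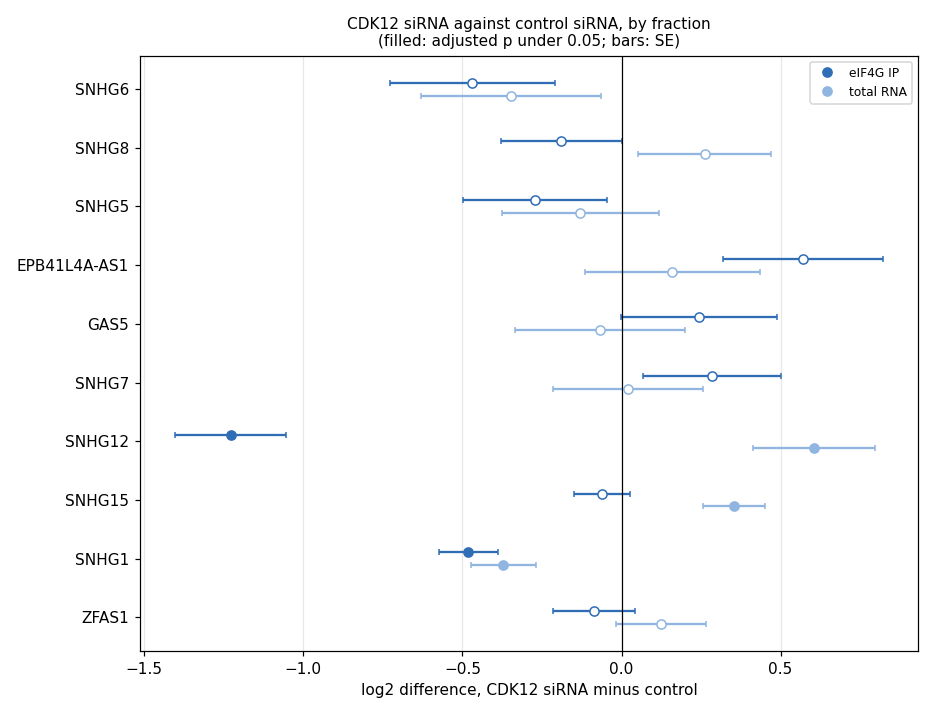
Log2 difference between CDK12 siRNA and control for each host, in IP and total RNA, with SE bars. Filled points passed an adjusted p of 0.05. SNHG12 has filled points on both sides of 0 (IP -1.23, total RNA 0.60).

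The snoRNAs lie inside the gene bodies, so their tags count for the host as well. Over the 10 hosts together, snoRNA tags made up 4.07% and 4.55% of host tags in rapamycin IP, 1.35% and 1.5% in CDK12 siRNA IP, and 1.85%, 1.28% and 1.57% in control IP. In total RNA the shares were 5.97% and 6.04% with rapamycin, 5.17% and 7.07% after CDK12 siRNA, and 4.46% and 4.40% in control. SNHG6, whose gene body holds 1 snoRNA, made up 17.5% and 14.5% of host tags in rapamycin IP, against 59.0%, 54.9% and 56.4% in control IP. Its part in the pooled share is seen by leaving it out. Without SNHG6, an alternative chosen after seeing the data, the snoRNA share was 4.83% and 5.26% in rapamycin IP, 2.57% and 3.09% in CDK12 siRNA IP, and 4.45%, 2.85% and 3.53% in control IP. Over all 10 hosts, both rapamycin IP libraries were above all control IP libraries, but an exact two-sided permutation test gave p = 0.2, which became 0.444 when adjusted over 4 comparisons. The other 3 comparisons gave exact p values of 0.6, 0.333 and 0.333, and designs this small cannot reach 0.05. SNORA24 was the snoRNA with the most tags, 1205 over all libraries. It made up 17.4% and 17% of SNHG8 tags in rapamycin IP, against 11.1%, 6.02% and 7.88% in control IP. With all hosted snoRNA tags taken out, SNHG8 kept its fall in the IP, and its rise in total RNA became 0.49 with an adjusted p of 0.0719.

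In 4 hosts a gene on the other strand overlaps the host. MCMDC2 overlaps SNHG6 by 118 bp and held between 51.3% and 66.5% as many tags as SNHG6 in every library, with r = 0.999 between their log2 tags over 13 libraries, which share treatment and depth. MCMDC2 had 948 and 618 tags in rapamycin IP, against 6370, 8196 and 6932 tags in control IP, so both rows were low together. Counted without strand, tags of the 2 genes cannot be told apart where they overlap. FAM69B overlaps SNHG7 by 124 bp and held 55.0% to 121% as many tags (r = 0.91). GAS5-AS1 overlaps GAS5 by 40 bp and held 6.84% to 33.5%, the highest in CDK12 siRNA IP replicate 3, where GAS5 was also highest (r = 0.94). TRNAU1AP overlaps SNHG12 by 7 bp, and its tags did not follow SNHG12 (r = 0.09).

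**Figure D5:**
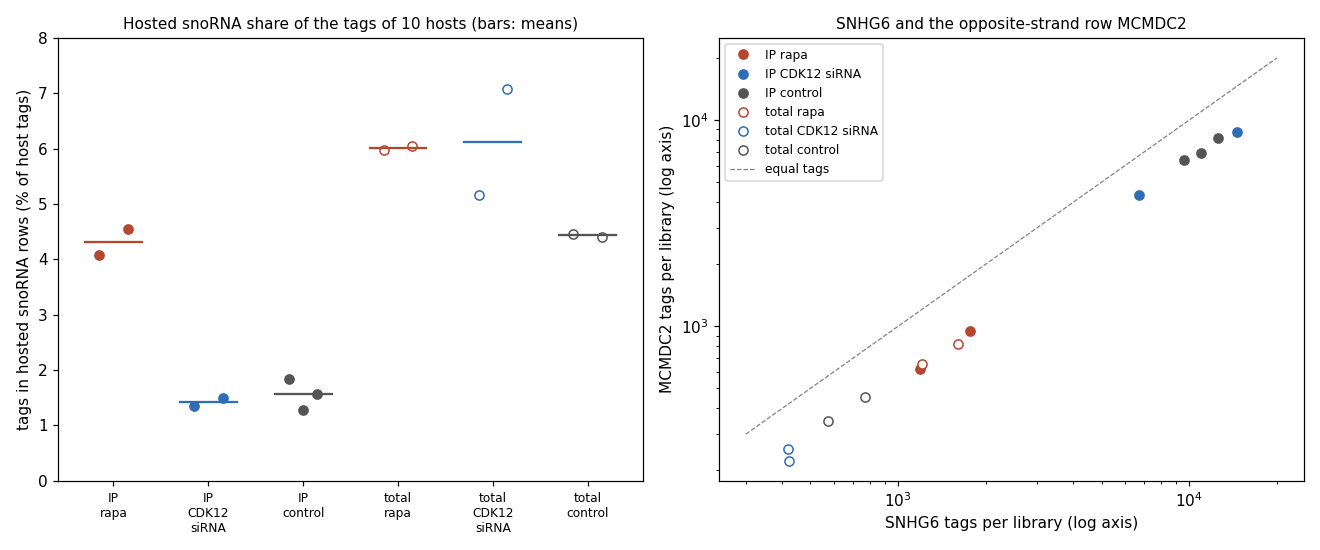
Left, the share of host tags in hosted snoRNA rows, in percent, by group; points are libraries and bars are means. Right, tags of MCMDC2 against tags of SNHG6 in the 13 libraries, on log axes; all points lie below the line of equal tags, with MCMDC2 at 51.3% to 66.5% of SNHG6.

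Among themselves the hosts did not form 1 pattern. Over the 13 libraries, which share treatments, the 45 pairs of hosts had a median r of 0.45 between their scaled log2 levels, and 10 pairs were below 0. SNHG6 and SNHG8 were the most alike (r = 0.98), and SNHG1 and ZFAS1 the least (r = -0.45). Among 3243 genes that reached 5 FPKM in some group, S100A13 was nearest to the mean of the hosts (r = 0.98), then KCTD2, USP5, TRAPPC3 and COX4I1. For GAS5 alone the nearest were NDUFB6 (r = 1.00), TEFM and OSTC (r = 0.99 each).

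Related lists give the setting, with counts at the same threshold, in the fit given here only. Over all tested genes, 54.0% were higher and 26.4% lower in control IP than in total RNA. In rapamycin IP 40.3% fell and 32.2% rose, and rapamycin interactions were negative in 37.9% and positive in 24.5%. Some lists share genes, among them RPL23 and NOP56, so their counts are not independent. Of 13 other noncoding hosts tested, 9 were higher and 1 lower in control IP than in total RNA, and 5 rose and 3 fell in rapamycin IP, with a median of 0.24. By smallest p there, LINC00324 was higher in control IP by 1.36 ± 0.09, SNHG17 lower, at -0.75 ± 0.06, and DANCR higher by 2.78 ± 0.22. Their rapamycin interactions were -1.31 ± 0.14, 0.71 ± 0.09 and -1.68 ± 0.33. Over the 13 other noncoding hosts that interaction was negative in 3 and positive in 1. Its median there was -0.16, beside -0.14 over all tested genes. Of 48 protein-coding hosts, 27 fell and 11 rose in rapamycin IP, with a median of -0.61. RPL23, a ribosomal protein gene, fell by 3.67 ± 0.17 there. Of 75 ribosomal protein genes, 37 fell and 12 rose in rapamycin IP, with a median of -0.57, and 48 had a negative rapamycin interaction and 3 a positive one. Of 15 proteins that build snoRNPs, the particles that snoRNAs work in, 12 fell and none rose in rapamycin IP, among them RUVBL1, an assembly factor, by 1.40 ± 0.07, and NOP56, a core protein of box C/D particles, by 1.45 ± 0.10. Of 19 factors of nonsense-mediated decay, 9 fell and 7 rose there. Of 8 nuclear noncoding RNAs, 7 were lower in control IP than in total RNA and 7 rose in rapamycin IP, among them RPPH1, the RNA of ribonuclease P, by 4.09 ± 0.14.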

How the data were processed

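The authors deposited FPKM per gene, made with HOMER's gene counting program over gene bodies of hg19, per the file headers. The submitters' processing notes list STAR 2.4.0k and FastQC. No source used here gives the strand setting. The gene length in base pairs was deposited too, and the authors' log2 group means and differences in the deposited table were not used. FPKM are not counts, so log2(FPKM + 1) was tested with limma 3.58.1 (lmFit, eBayes with trend) in R 4.3.3, after division by median-ratio factors (0.869 to 1.23), on the 9908 genes that reached 1 FPKM in 2 or more libraries. All 13 libraries in 6 groups entered 1 fit, with Benjamini-Hochberg adjustment in each of 9 contrasts and a threshold of 0.05. Low FPKM values were whole multiples of 1 read (within 0.02 reads) in 99.9% to 100% of cases, from which depth and tags were taken.

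The written plan did not say which genes the factors come from. A first fit took them from the tested genes alone. After its results were seen, the fit was changed to factors over all genes above 0 in every library, as in an earlier analysis of these data. Both are reported: the first fit called 2, 5, 3, 1, 2, 4, 9, 9 and 4 hosts and the one given here 2, 6, 3, 3, 2, 6, 9, 8 and 4, in the order IP CDK12 siRNA, IP rapamycin, total CDK12 siRNA, total rapamycin, CDK12 siRNA interaction, rapamycin interaction, and IP against total RNA in control, CDK12 siRNA and rapamycin. The hosts and lists were chosen with earlier results of these data known. The rule named all 10 hosts in every comparison and, in related lists, up to 4 genes of smallest p per contrast. Uncalled hosts are given partly by adjusted p alone, and from related lists 1 to 3 genes of smallest p are named where any is. Same-numbered libraries did not deviate together (1 of 26 pairs with a correlation over 0.1), so numbers were not used as pairs. In groups of 2 the deviations of the libraries mirror each other, so the 26 pairs are not all independent. The code of the fit was checked on simulated data, for CDK12 siRNA in the IP only and with a spread set beforehand. That check says nothing about the spread among these libraries. Promoter sequences are from RefSeq (GRCh38.p14), and 28 symbols turned into dates were repaired.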

Additional observations from a re-analysis of the deposited data

Results flagged for a closer look

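For 8 host differences the change in the IP differed from the change in total RNA by the interaction test. With rapamycin these were SNHG6 (-3.71), SNHG8 (-2.38), SNHG5 (-1.52), SNHG12 (-0.97), SNHG15 (-0.48) and SNHG1 (-0.40), where date and rapamycin cannot be told apart. Under quantile normalization SNHG12 (-0.15) and SNHG15 (-0.02) lost their calls and SNHG1 turned to 0.62, and with factors from the tested genes SNHG15 (-0.20) and SNHG1 (-0.08) lost theirs. After CDK12 siRNA they were SNHG12 (-1.83) and SNHG15 (-0.42). SNHG12 kept its call under all 23 alternatives. SNHG15 lost its call with no scaling (-0.10, adjusted p 0.550), the compared groups alone (-0.42) and library weights (-0.40). No group holds 4 libraries, so single libraries were not tested as outliers.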

How the results depend on the processing

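Of 43 called host differences, 17 kept their call under all alternatives run. All 90 host differences were computed under every alternative, except those of SNHG15 with a mean FPKM of at least 5, a filter it did not pass. In all, 83 signs changed, 74 in uncalled values. Only after that was seen was the account limited to the called differences and the 10 uncalled ones named in the text. The 37 left out include 30 that changed sign under some alternative (69 settings in all) and 14 that passed the threshold under some alternative.

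Counts of hosts called moved by over 1.5 times as follows. For rapamycin in total RNA (3) the count was 1 with no filter, 5 with no scaling, 5 with the compared groups alone and 1 with factors from the tested genes, the first fit. For CDK12 siRNA in total RNA (3) it was 1 with no scaling. For CDK12 siRNA in the IP (2) it was 1 under quantile normalization, with the compared groups alone and with library weights. For the CDK12 siRNA interaction (2) it was 1 with a mean FPKM of at least 5, where SNHG15 was not tested. It was also 1 with no scaling, the compared groups alone and library weights. Leaving out 1 library gave 2 to 5 hosts for CDK12 siRNA in the IP, 4 to 6 for rapamycin in the IP, 0 to 3 and 0 to 4 for CDK12 siRNA and rapamycin in total RNA, 1 to 3 and 5 to 7 for their interactions, and 8 to 9, 8 to 9 and 1 to 6 for IP against total RNA in control, CDK12 siRNA and rapamycin.

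Signs turned under quantile normalization for GAS5 (rapamycin in the IP 0.19, rapamycin interaction 0.28, IP against total RNA -0.60 in control and -0.17 after CDK12 siRNA), SNHG1 (rapamycin interaction 0.62, IP against total RNA in control -1.46), SNHG12 (IP against total RNA in control -0.43), SNHG15 (IP against total RNA after CDK12 siRNA -0.43) and SNHG6 (IP against total RNA with rapamycin -0.13). With factors from the tested genes they turned for SNHG1 (IP against total RNA in control -0.30) and SNHG15 (after CDK12 siRNA -0.13). With 1 library left out, GAS5 after CDK12 siRNA in the IP ranged from -0.28 to 0.77 and ZFAS1, IP against total RNA in control, from -0.098 to 0.034. The cause was not tested. The median of all genes for IP against total RNA in control was 0.35, 0.22 with no scaling, 0.03 under quantile normalization and 0 with factors from the tested genes. Genes higher and lower there numbered 5355 and 2617, against 3881 and 3752 under quantile normalization and 3899 and 3963 with factors from the tested genes.

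With the replicate block, calls were lost for GAS5 with rapamycin in the IP (-0.58, adjusted p 0.0551), SNHG12 after CDK12 siRNA in total RNA (0.60, adjusted p 0.0565) and the SNHG1 rapamycin interaction (-0.37, adjusted p 0.0565), and EPB41L4A-AS1 after CDK12 siRNA in the IP passed (0.59, adjusted p 0.0184). For CDK12 siRNA in the IP, 3174 genes were called, 1015 with the compared groups alone and 1105 with library weights. For rapamycin in total RNA 3632 genes were called, 5815 with library weights and 5514 under quantile normalization. Without SNHG6, the hosts' mean snoRNA share was 5.05% in rapamycin IP, 2.83% in CDK12 siRNA IP and 3.61% in control IP, and in total RNA 6.79% with rapamycin and 4.95% in control, all moved by more than the spread between libraries. SNHG5 had 68 to 101 tags in CDK12 siRNA and control total RNA, which limits its precision there.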
